A study of Mus musculus with 6 samples.

Results

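The genes described here are 10 ligands and receptors of vascular growth signalling, taken by gene symbol from a series that measured the tissue above and below the mouse aorta: the VEGF ligands Vegfa, Vegfb and Vegfc, the VEGF receptors Flt1, Kdr and Flt4, the angiopoietins Angpt1 and Angpt2, and the Tie receptors Tek and Tie1. All 10 had 1 probe set each among the 24973 of the array, of which 24015 carry a gene symbol. Ventral tissue, cut from beneath the aorta, and dorsal tissue, cut from the space that separates the notochord from the aortic roof, were laser microdissected from cryosections of unfixed C57BL/6 embryos at embryonic day 11.5. Each tissue was profiled on 3 Affymetrix arrays numbered 1 to 3 as biological replicates, with no treatment or transgene in either group, and the labels say that both tissues were taken from the same embryos. The series concerns the niche of hematopoietic stem cells below the aorta, so the comparison asks how these vascular signals in ventral tissue stand against those in dorsal tissue.

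VEGF ligands are secreted proteins that bind receptor tyrosine kinases on endothelial cells, where KDR (VEGFR2) carries most of the growth and survival signal, FLT1 (VEGFR1) largely acts as a trap for VEGF-A, and FLT4 (VEGFR3) responds to VEGF-C in veins and lymphatics. Angiopoietins bind the endothelial receptor TEK (TIE2): ANGPT1, made by mural and mesenchymal cells, activates it and stabilises vessels, ANGPT2, made largely by endothelial cells, can oppose it, and TIE1 is a related receptor with no firmly established ligand that modulates TEK. In the midgestation embryo this system builds the aorta and its surrounding vessels, and KDR also marks the mesodermal precursors of endothelial and blood cells.

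Expression is given as log2 values on the authors' RMA scale, so that a difference of 1 is a doubling of signal. Ventral minus dorsal differences were fitted with limma, with the replicate number as a block, across the 12028 named genes whose mean over the 6 arrays reached the median of all probe sets (4.52). Calls required a Benjamini-Hochberg adjusted p under 0.05 over all genes tested. Array medians were 4.49 to 4.55, and with 3 arrays a tissue all values carry wide intervals. Endothelial genes were detected in both tissues: Cdh5, the cadherin of endothelial junctions, averaged 8.21 ± 0.43 in ventral and 7.66 ± 0.35 in dorsal tissue, and Pecam1 averaged 6.72 ± 0.09 and 6.14 ± 0.64 (SD, n = 3 each). The mean level of 16 sclerotome and cartilage genes, each gene taken relative to its own mean over the 6 arrays, ran from −0.62 to −0.37 on ventral and from 0.14 to 0.69 on dorsal arrays, with 3 genes called lower and 0 higher in ventral tissue (limma). That of 16 visceral mesenchyme and coelomic epithelium genes ran from 0.04 to 0.69 on ventral and from −0.62 to −0.21 on dorsal arrays. Of these genes, 4 were called higher and 1 lower. Over all genes tested, 0.308% were called higher and 0.208% lower in ventral tissue. Both lists were chosen with earlier results of these data known. None of the visceral genes was called in fits without the block that left out dorsal 1, ventral 2 or ventral 3, and with no brightness filter 0 sclerotome and 2 visceral genes were.

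Kdr had the largest difference of the 10 genes, about 2.00-fold higher in ventral tissue, closely followed by Angpt2 at 1.98-fold. The order of these 2 was not stable, since without replicate 2 the log2 fold change was 1.49 for Angpt2 and 1.17 for Kdr. The means of the VEGF ligands Vegfa and Vegfb differed by less than 0.1 on the log2 scale. Of the 10 genes, 8 had a higher mean in ventral tissue, including all 5 receptors, where 47.7% of all genes tested had a positive log2 fold change, and the median log2 fold change of the 10 was 0.29, against −0.01 over all genes tested. Among the 9 members that were tested, which leaves out Flt4, 7 were positive and the median was 0.20. None of the 9 members bright enough to be tested was called in limma (lowest adjusted p = 0.121, Kdr), where 0.515% of all genes tested were called. At an unadjusted p under 0.05 there were 3 of 9, Kdr, Flt1 and Angpt2, all higher in ventral tissue, against 10.7% of all genes in either direction and 5.6% in that direction. All ventral arrays lay above all dorsal arrays for Kdr and Flt1 among the tested genes and for Flt4 among the untested, which held for 7.5% of all genes tested, and 15.4% of all genes did not overlap in one direction or the other. In 0 members did all dorsal arrays lie above all ventral ones, which 7.88% of all genes tested did.

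**Figure D1:**
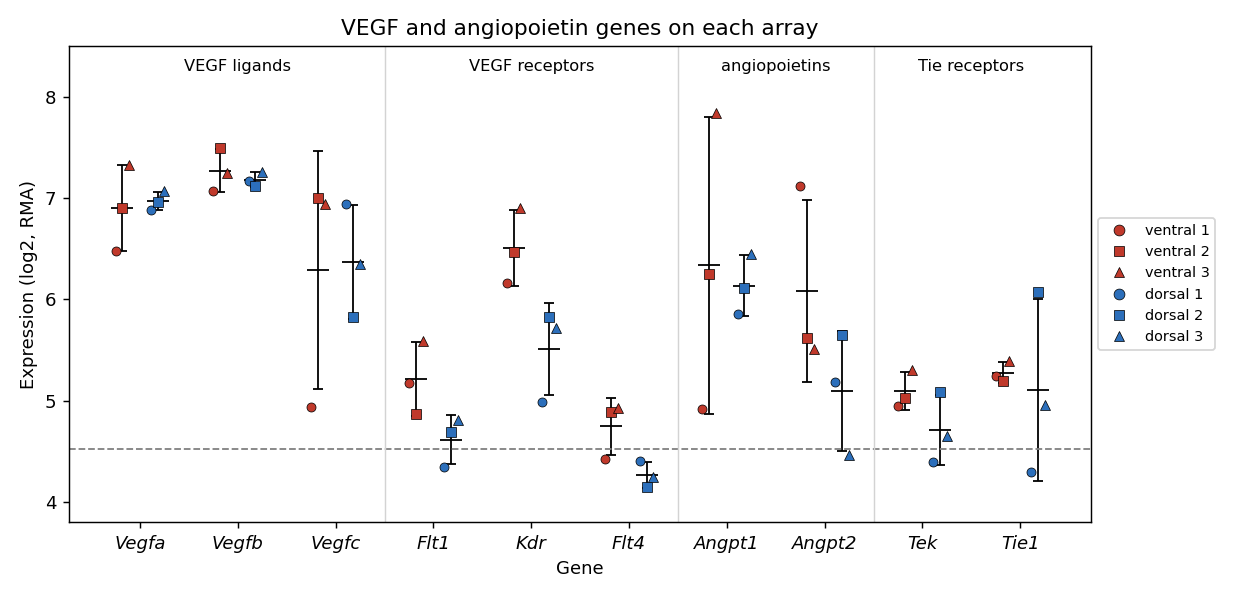
Log2 expression (RMA, vertical axis) of the 10 genes on each array, with ventral arrays in red left of dorsal arrays in blue, symbols for replicate numbers 1 to 3, and bars for the mean and SD of 3 arrays. The dashed line is the brightness level of 4.52; Kdr, Flt1 and Flt4 have all red points above all blue ones, and single arrays stand apart in Vegfc, Angpt1, Angpt2 and Tie1.

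Kdr encodes the main signalling receptor for VEGF-A. It measured 6.16, 6.47 and 6.90 on ventral arrays 1, 2 and 3, against 4.99, 5.83 and 5.72 on dorsal arrays 1, 2 and 3. The groups did not overlap, and the lowest ventral array stood 0.33 above the highest dorsal one. The mean was 6.51 ± 0.37 in ventral and 5.51 ± 0.46 in dorsal tissue (SD, n = 3 each), a log2 fold change of 1.00 ± 0.20 (SE; 95% interval 0.53 to 1.47). The same-numbered pairs differed by 1.17, 0.64 and 1.18, so ventral was higher in 3 of 3. Kdr was not called (limma, adjusted p = 0.121), with an unadjusted p of 0.00181 that 179 of the 12028 tested genes went below. Without the block its standard error was 0.28 and its adjusted p 0.246 in limma, and no alternative brought it under 0.117. A log2 fold change at least as far above 0 was reached by 1.6% of all genes tested. That share does not count genes lower in ventral tissue.

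Flt1 encodes the high-affinity VEGF-A receptor that, in its soluble form, limits VEGF signalling. It measured 5.18, 4.87 and 5.59 on ventral arrays and 4.34, 4.69 and 4.81 on dorsal arrays, in the order of replicate numbers. The groups were apart by only 0.06, between ventral 2 and dorsal 3. The log2 fold change was 0.60 ± 0.20 (95% interval 0.11 to 1.09), with ventral higher in 3 of 3 pairs, and was not called (limma, adjusted p = 0.358). Flt4, the VEGF-C receptor, had a mean of 4.51 over the 6 arrays, just under the brightness level, and was therefore not among the tested genes. It measured 4.42, 4.89 and 4.93 on ventral and 4.40, 4.14 and 4.25 on dorsal arrays. The ventral values were higher in 3 of 3 pairs, though ventral 1 exceeded dorsal 1 by only 0.02. With no brightness filter its log2 fold change was 0.48 ± 0.19 (limma, adjusted p = 0.622).

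The bases that precede the annotated starts of these 3 receptor genes are shown because theirs are the values that did not overlap between tissues. Capitals mark GGAA, or TTCC where it lies on the other strand, the core that ETS factors such as ERG and FLI1 bind in endothelial genes. Sequences are the 250 bases upstream of the start, from RefSeq on GRCm38.p6, written 5′ to 3′ on the strand of the gene.
Kdr, chr5:75978456-75978705, minus strand: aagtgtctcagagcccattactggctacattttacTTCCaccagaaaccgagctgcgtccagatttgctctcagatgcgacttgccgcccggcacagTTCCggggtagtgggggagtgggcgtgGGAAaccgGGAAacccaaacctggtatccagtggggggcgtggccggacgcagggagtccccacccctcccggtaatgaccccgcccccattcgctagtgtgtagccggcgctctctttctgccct
Flt1, chr5:147726012-147726261, minus strand: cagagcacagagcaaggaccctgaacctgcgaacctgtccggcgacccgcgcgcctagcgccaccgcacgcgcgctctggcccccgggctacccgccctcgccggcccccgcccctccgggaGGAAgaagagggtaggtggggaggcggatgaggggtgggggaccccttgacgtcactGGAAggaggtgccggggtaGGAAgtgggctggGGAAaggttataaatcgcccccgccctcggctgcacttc
Flt4, chr11:49609429-49609678, plus strand: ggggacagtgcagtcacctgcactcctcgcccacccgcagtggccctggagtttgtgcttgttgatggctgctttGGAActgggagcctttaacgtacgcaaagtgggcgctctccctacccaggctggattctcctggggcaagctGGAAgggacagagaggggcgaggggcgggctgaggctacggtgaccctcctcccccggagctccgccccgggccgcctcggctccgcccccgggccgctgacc
Kdr and Flt1 each held 4 matches and Flt4 held 2, against a median of 3 over the same 250 bases of 32851 promoters, 93.4% of which held at least 1 match. Among the Tie receptors, the Tie1 window held 7 matches, a number reached by 3.82% of all promoters, and the Tek window held 2. The core ACGTG, bound by hypoxia-inducible factors, or its reverse complement was in 1 of the 2 listed Vegfa windows and in none of the other windows of these genes, and in 16.6% of all promoters. That Vegfa window, chr17:46025164-46025413, held 2 GGAA or TTCC matches. The other Vegfa window, chr17:46032378-46032627, held 6, a number reached by 8.69% of all promoters. Vegfb and Vegfc held 1 GGAA or TTCC match each. Windows were listed for 8 of the 10 genes, and Angpt1 and Angpt2 are the others. A match describes the letters only.

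Tek, the angiopoietin receptor, measured 4.94, 5.03 and 5.30 on ventral and 4.40, 5.09 and 4.65 on dorsal arrays. Dorsal 2 lay within the ventral values, so the groups overlapped. The log2 fold change was 0.38 ± 0.21 (95% interval −0.12 to 0.88), not called in limma (adjusted p = 0.596). Tie1 measured 5.24, 5.19 and 5.39 on ventral arrays, a narrow span of 0.20, and 4.29, 6.07 and 4.95 on dorsal arrays, a span of 1.78. Dorsal 2 held the highest Tie1 value of all 6 arrays and dorsal 1 the lowest. The log2 fold change was 0.17 ± 0.35 (limma, adjusted p = 0.926), and in fits without the block it was 0.65 without dorsal 2 and −0.24 without dorsal 1, neither called.

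The mean level of 22 endothelial genes, each relative to its own mean over the 6 arrays, was −0.10, 0.32 and 0.22 on ventral arrays and −0.37, 0.13 and −0.19 on dorsal arrays, so that dorsal 2 was the highest dorsal array and lay above ventral 1 but below ventral 2 and 3. Of these 22 genes, 18 had positive and 4 negative log2 fold changes, the median was 0.39, and none was called in limma. At an unadjusted p under 0.05 there were 7, against 10.7% of all genes tested (limma). The highest were She (1.12 ± 0.31), Sox18, a transcription factor of arterial and lymphatic endothelium (0.70 ± 0.19), and Cldn5, a tight junction protein (0.70 ± 0.18). The lowest were the ETS factors Fli1 (−0.80 ± 0.21) and Erg (−0.33 ± 0.22) and the blood and endothelial factor Tal1 (−0.06 ± 0.17). In bulk tissue, more endothelial cells and more RNA of a gene per cell cannot be told apart.

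Each receptor was also set against the mean of the 22 endothelial genes on the same array. These genes differed in direction (18 positive and 4 negative), so this does not separate cell number from RNA per cell. Kdr minus this mean was 0.42, 0.30 and 0.83 on ventral arrays and −0.48, −0.15 and 0.07 on dorsal arrays, without overlap and higher in 3 of 3 pairs. The difference was 0.71, with p = 0.1 in an exact two-sided permutation test, which is the smallest p that 3 against 3 arrays allow, and an adjusted p of 0.5 over the 5 receptors. Against the median of the endothelial genes the Kdr difference was 0.62. For Flt1 the difference was 0.31 (exact p = 0.4), for Flt4 0.19 (exact p = 0.5), for Tek 0.09 (exact p = 0.6) and for Tie1 −0.12 (exact p = 0.9), all with overlapping arrays. The sign for Tek turned to −0.0044 without replicate 1 and that for Tie1 to 0.35 without replicate 2, whereas Kdr ran from 0.61 to 0.83 when each replicate was left out.

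**Figure D2:**
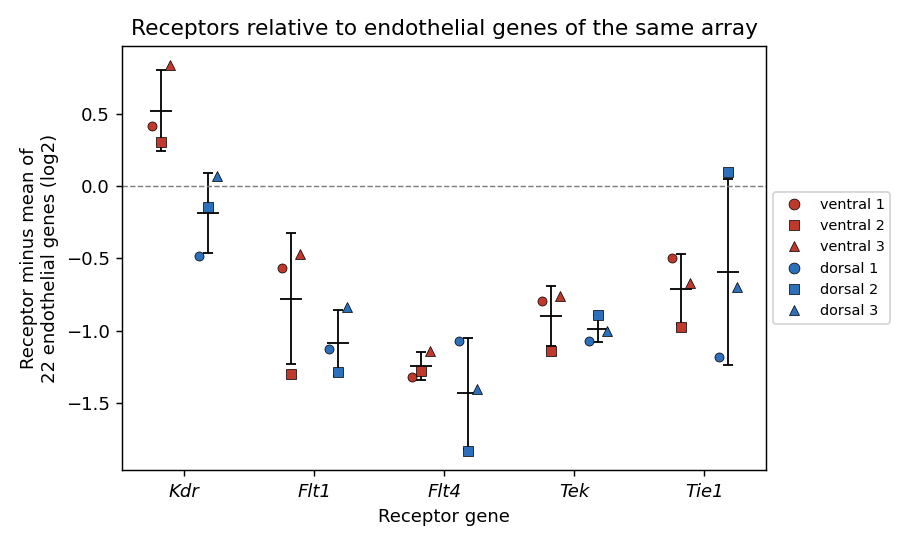
Log2 value of each of the 5 receptors minus the mean log2 value of 22 endothelial genes on the same array (vertical axis), ventral arrays in red left of dorsal arrays in blue, with the mean and SD of 3 arrays. The Kdr points of the tissues are apart (0.30 to 0.83 in ventral, −0.48 to 0.07 in dorsal tissue), and those of the other receptors overlap.

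Among the ligands, Vegfa, the principal ligand of KDR and FLT1, measured 6.48, 6.91 and 7.33 on ventral and 6.88, 6.96 and 7.07 on dorsal arrays. The dorsal arrays spanned 0.18 and lay inside the ventral span of 0.85. The log2 fold change was −0.07 ± 0.20, and its 95% interval of −0.55 to 0.41 leaves room for a ventral level between 0.68 and 1.33 times the dorsal one (limma, adjusted p = 0.947). Vegfb, a ligand of FLT1, measured 7.07, 7.49 and 7.25 on ventral and 7.16, 7.11 and 7.26 on dorsal arrays. Its log2 fold change was 0.09 ± 0.19 (95% interval −0.36 to 0.54; limma, adjusted p = 0.925). The directions of both rested on single arrays, since without the block Vegfa stood at 0.14 without ventral 1 and Vegfb at −0.02 without ventral 2.

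Vegfc, the ligand of FLT4, varied far more between replicates. It measured 4.93, 6.997 and 6.94 on ventral arrays and 6.94, 5.82 and 6.35 on dorsal arrays. Ventral 1 was about 2 log2 units below the other ventral arrays, and the pairs differed by −2.01, 1.18 and 0.60. The log2 fold change of −0.08 ± 0.57 had a 95% interval of −1.46 to 1.30 (limma, adjusted p = 0.981), wide enough to hold a difference larger than that of Kdr in either direction. Without replicate 1 it was 0.89 ± 0.26, with ventral higher in both remaining pairs (limma, adjusted p = 0.281). Its SD over ventral arrays, 1.18, exceeded that of 99.0% of all genes tested.

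Angpt1, the activating ligand of TEK, measured 4.91, 6.25 and 7.84 on ventral and 5.85, 6.11 and 6.45 on dorsal arrays. The dorsal arrays spanned 0.60 and the ventral ones 2.92, the widest span of the 10 genes. The log2 fold change was 0.20 ± 0.41 (limma, adjusted p = 0.927), and without the block it was −0.55 without ventral 3 and 0.91 without ventral 1. Angpt2, the context-dependent antagonist, measured 7.12, 5.62 and 5.51 on ventral and 5.18, 5.64 and 4.46 on dorsal arrays. Ventral 1 was high, and ventral 2 was level with dorsal 2. The mean was 6.08 ± 0.90 in ventral and 5.10 ± 0.60 in dorsal tissue (SD, n = 3 each), a log2 fold change of 0.99 ± 0.36 (95% interval 0.12 to 1.85), with ventral higher in 2 of 3 pairs and no call in limma (adjusted p = 0.394). Without the block and without ventral 1 it was 0.47, and with the block and without replicate 2 it was 1.49 (limma, adjusted p = 0.130).

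The array ventral 1 thus had the highest Angpt2 and the lowest Angpt1, Vegfa, Vegfb and Vegfc of the 6 arrays. Angpt2 minus Angpt1 was 2.21 on ventral 1, against −0.63 and −2.33 on ventral 2 and 3 and −0.67, −0.46 and −1.99 on the dorsal arrays. These within-array values show how far the arrays differ and not which transcript was more abundant. The mean level of 14 mural genes, relative to each gene's own mean, was 0.83, 0.34 and 0.05 on ventral arrays and −0.51, −0.06 and −0.66 on dorsal arrays, with ventral 1 the highest. Myh11, a smooth muscle myosin, stood at 6.84 on ventral 1 against 5.06 and 4.38 on ventral 2 and 3 and 4.46 to 4.79 on dorsal arrays, and the contractile genes Acta2, Cnn1 and Tagln were also highest on ventral 1. The pericyte gene Rgs5 was not, with 7.94, 8.91 and 7.75 on ventral and 6.37, 6.37 and 5.31 on dorsal arrays. The mean level of macrophage genes was also highest on ventral 1, at 0.46, 0.14 and −0.09 on ventral and −0.03, 0.15 and −0.63 on dorsal arrays (12 genes). Ptprc, Cd14, Itgam and Timd4 of that list were below the brightness level. The part of these cell types in the Angpt2 and Angpt1 values was not tested.

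Of the 7 differences between members taken within each array, only Kdr minus Tek did not overlap between tissues. It was 1.21, 1.44 and 1.59 on ventral and 0.59, 0.74 and 1.07 on dorsal arrays, a difference of 0.62 (exact two-sided permutation p = 0.1, the smallest possible; adjusted p = 0.467 over the 7). Kdr minus Flt1 differed by 0.40 (exact p = 0.2) and was higher in ventral tissue in 3 of 3 pairs, and Kdr minus Flt4 by 0.52 (exact p = 0.2). The other differences were 0.79 for Angpt2 minus Angpt1 (exact p = 0.8), 0.21 for Tek minus Tie1 (exact p = 0.7), −0.16 for Vegfa minus Vegfb (exact p = 0.4) and −0.01 for Vegfc minus Vegfa (exact p = 1). Without replicate 1, Angpt2 minus Angpt1 turned to −0.25 and Vegfc minus Vegfa to 0.79, and without replicate 2, Tek minus Tie1 turned to −0.10.

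**Figure D3:**
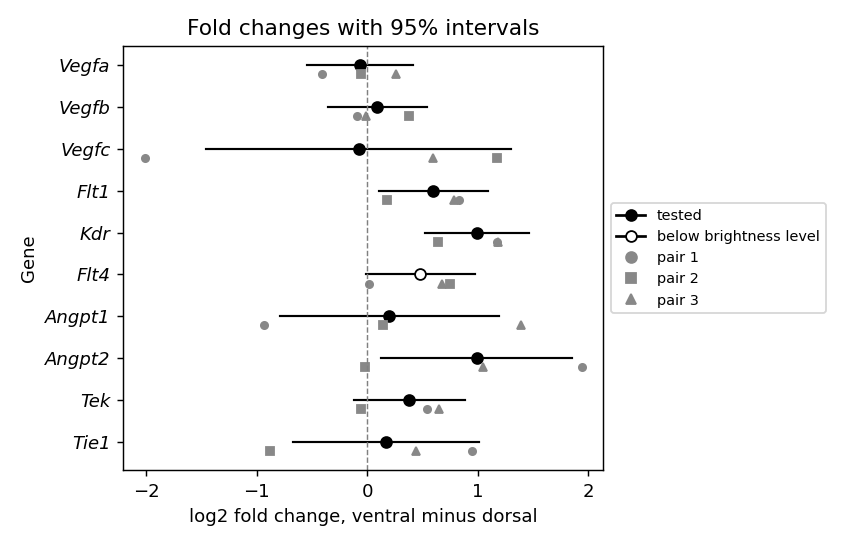
Log2 fold change, ventral minus dorsal (horizontal axis), of the 10 genes, with black points and lines for the limma estimate and its 95% interval, an open point for Flt4 (below the brightness level, fitted with no filter), and grey symbols for the 3 same-numbered pairs. The intervals of Kdr, Flt1 and Angpt2 lie above 0, and the pairs of Vegfc, Angpt1, Angpt2 and Tie1 are widely spread.

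The other ligands and co-receptors of the pathway held no call in limma among 17 tested genes of 21 named. Log2 fold changes were positive in 12 and negative in 5, with a median of 0.15. At an unadjusted p under 0.05 there were 6 (limma). The share over all genes tested was 10.7%, for this list and for those below. Nrp1, a neuropilin that binds VEGF-A together with KDR, measured 6.93, 6.71 and 7.39 on ventral and 6.37, 6.26 and 5.55 on dorsal arrays. Its arrays did not overlap, with a log2 fold change of 0.95 ± 0.30 (limma, adjusted p = 0.321). In this list 7 of 17 tested genes did not overlap, 5 with ventral and 2 with dorsal arrays above, against 15.4% of all genes tested. Plxnd1, a semaphorin receptor of endothelial cells (0.83 ± 0.27), and the sheddase Adam10 (0.64 ± 0.22) followed. At the other end were Sema3a, a secreted semaphorin that competes for neuropilins (−1.98 ± 0.28; limma, adjusted p = 0.0563), Svep1, an extracellular matrix protein (−0.90 ± 0.24), and Adamts14 (−0.06 ± 0.19). Sema3a measured 4.89, 4.93 and 4.40 on ventral and 7.40, 6.13 and 6.62 on dorsal arrays, and its adjusted p ran from 0.0154 to 0.191 over all alternatives. Nrp2, the co-receptor for VEGF-C, had a log2 fold change of −0.05 ± 0.29, and Ptprb, the phosphatase that acts on TEK, one of 0.12 ± 0.21. Pgf, a further ligand of FLT1, was below the brightness level, with 4.63 on ventral 1 and 2.93 to 3.34 on the other arrays.

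Intracellular signalling genes, such as adaptors, kinases and the FOXO factors downstream of TEK, held no call among 38 tested of 42 named (limma; 2 had an unadjusted p under 0.05), with 25 positive and 13 negative values and a median of 0.09. The highest were Hspb1, a small heat shock protein phosphorylated after VEGF stimulation (0.59 ± 0.21), Rin2 (0.53 ± 0.21) and Myo6, a motor that carries internalised KDR (0.51 ± 0.30), and the lowest were the adaptor Grb14 (−0.53 ± 0.22), Prkd1 (−0.26 ± 0.24) and Map2k1 (−0.19 ± 0.27).

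Of the VEGF response and tip cell genes, 21 of 29 were tested, 16 had positive and 5 negative values, and the median was 0.46. In limma 10 had an unadjusted p under 0.05. Of these, 9 were higher in ventral tissue, against 5.6% of all genes tested. After adjustment 2 rose in ventral tissue, as did 0.308% of all genes tested. Adamts9, a secreted metalloprotease (2.10 ± 0.23, adjusted p = 0.0258), and Hlx, a homeobox gene that is also a marker of visceral mesenchyme (2.00 ± 0.19, adjusted p = 0.0183), were the 2. Hlx also stands on the visceral mesenchyme list above. Hlx was not called without the block when dorsal 1 (limma, adjusted p = 0.0689), ventral 2 (0.0937) or ventral 3 (0.0570) was left out, and Adamts9 lost its call on the same 3 arrays (0.0870, 0.0973 and 0.0730) and, with the block, without replicate 1 (0.0501) or replicate 3 (0.0678). With no brightness filter neither was called (limma, adjusted p = 0.0647 for Hlx and 0.106 for Adamts9). Next came Igfbp5, a binding protein of insulin-like growth factors (1.64 ± 0.29, adjusted p = 0.0972). The lowest were Rcan1, a calcineurin regulator induced by VEGF (−0.89 ± 0.25), the chemokine receptor Cxcr4 (−0.32 ± 0.25) and Egr3 (−0.21 ± 0.17), none of them called. The tip cell genes Esm1, Dll4 and Apln had means of 4.11, 4.42 and 4.01 in ventral and 4.02, 4.25 and 3.71 in dorsal tissue, all below the brightness level.

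Hypoxia response genes, which include targets of the factors that also drive Vegfa, held no call among 22 tested of 29 named (limma; 3 had an unadjusted p under 0.05), with 9 positive and 13 negative values and a median of −0.05. The highest were Pdk1 (0.59 ± 0.22), Bnip3l (0.50 ± 0.19) and the glycolytic enzyme Tpi1 (0.46 ± 0.19), and the lowest were Ddit4 (−0.36 ± 0.44), Vhl (−0.25 ± 0.26) and Epas1, the hypoxia factor of endothelial cells (−0.23 ± 0.24). Over ventral 1, 2 and 3 the list rose as Vegfa did, with mean levels of −0.25, 0.02 and 0.28. Over the dorsal arrays (−0.04, 0.01 and −0.01) its order was not that of Vegfa. The intracellular signalling (−0.03, 0.05 and 0.16) and VEGF response lists (0.19, 0.23 and 0.43) had the same ventral order. So did the lymphatic and venous list, whereas the endothelial, mural and macrophage lists, among others, did not. A link between Vegfa and the hypoxia response genes was not tested.

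Of 14 mural genes tested, 11 were positive in sign and their median was 0.68. At an unadjusted p under 0.05 in limma there were 7, all higher in ventral tissue, against 5.6% of all genes tested. The pericyte regulator Rgs5 (2.18 ± 0.24, adjusted p = 0.0258 in limma) was the 1 called higher, as were 0.308% of all genes tested. Rgs5 was not called in limma without the block (adjusted p = 0.0732), with the block at an estimated correlation (0.0586) or with no brightness filter (0.106). Nor was it without replicate 2 (0.0525) or 3 (0.0766), or when any single array was left out of the fit without the block (0.0909 to 0.201). Cnn1 (2.79 ± 0.50) and Acta2 (1.47 ± 0.34), both contractile genes, completed the 3 highest, and Vtn (−0.20 ± 0.20), Anpep (−0.14 ± 0.20) and Notch3 (−0.06 ± 0.20) the lowest, none of them called. The list of lymphatic and venous endothelium, which bears on Flt4, held no call among 9 tested genes (limma; 4 had an unadjusted p under 0.05). Its highest values were in Nr2f2, a venous and mesenchymal nuclear receptor (2.04 ± 0.38), Aplnr (1.19 ± 0.30) and Lyve1 (0.79 ± 0.17), and its lowest in Pdpn (−1.23 ± 0.29), Ephb4 (−0.07 ± 0.17) and Nrp2 (−0.05 ± 0.29). Lyve1 is expressed by both lymphatic endothelium and embryonic macrophages. Macrophage, erythroid and hematopoietic stem and progenitor genes held no call among 12 tested genes each (limma; 2, 7 and 5 had an unadjusted p under 0.05), with medians of 0.35, −0.49 and −0.10. All 12 macrophage genes had positive values, and all 12 erythroid genes had negative ones. The mean level of the erythroid genes ran from −0.44 to −0.11 on ventral and from 0.13 to 0.32 on dorsal arrays.

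**Figure D4:**
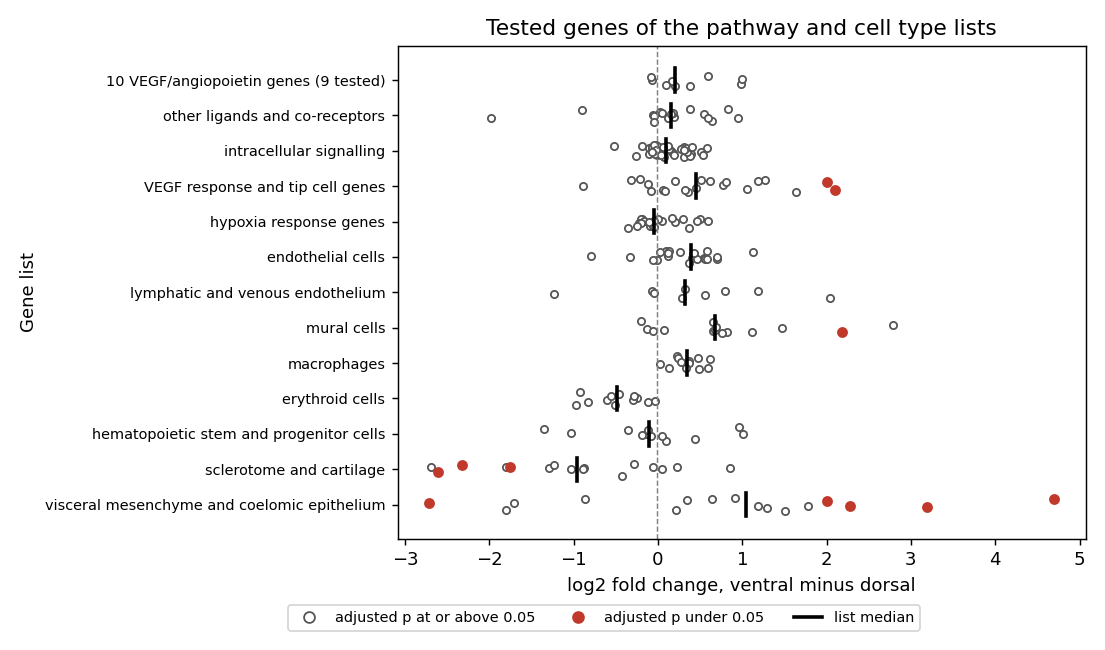
Log2 fold changes, ventral minus dorsal (horizontal axis), of the tested genes of each list (rows), with filled red points for an adjusted p under 0.05, open points for the rest, a black bar for the list median and a dashed line for the median of all genes tested. The 9 tested VEGF and angiopoietin genes have no filled point and a median of 0.20, the VEGF response list has 2 filled points, Hlx and Adamts9, and the mural list 1, Rgs5.

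Profiles were compared over the 6 arrays by the root mean square difference of log2 values, each gene centred on its own mean, for the member with the greatest difference in each role. The 3 tested genes nearest to Kdr were Zeb2os (0.16), Ifi30 (0.18) and Lyve1 (0.19). Those nearest to Angpt2 were Ly86 (0.18), Myl9 (0.24) and Laptm5 (0.24), of which Myl9 encodes a contractile light chain and Ly86 and Laptm5 are expressed in leukocytes. Nearest to Tek were Lamb2 (0.05), Hpgds (0.08) and Cd164 (0.09), and nearest to Vegfb, the ligand of greatest difference, were Ciita (0.03), Mta2 (0.04) and Pmm1 (0.05). With 12028 genes and 6 arrays, close profiles are found for any gene, so these names are a description only.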

How the data were processed

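Each array has 1 log2 value per probe set, as deposited. Expression Console (Affymetrix) and RMA are named in the submitters' processing notes. RMA adjusts background, makes the distributions of the arrays equal by quantiles and combines probes. Versions, the grouping of probes and the genome build were not given in the sources used here. Single-primer isothermal amplification of picogram RNA inputs preceded labelling, per the labels' protocols, and can distort weak transcripts. The platform table named 24015 of 24973 probe sets with 1 symbol and 0 with several, and 958 are unnamed here. List names absent there were sought among RefSeq synonyms.

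Ventral minus dorsal was fitted with limma (lmFit and eBayes, version 3.58.1, under R 4.3.3), two-sided, with Benjamini-Hochberg adjustment over the 12028 named genes whose mean reached 4.52. On simulated data this fit called 6 of 50 genes given a log2 shift of 1 and 35 of 50 given a shift of 2. It also made 7 false calls. Most simulated shifts of the size measured for Kdr were thus missed, so the lack of a call does not show equal levels. The replicate number was a fixed block because the labels say that both tissues came from the same embryos, though not that a number marks an embryo. After removal of tissue means, the 3 same-numbered pairs had correlations of 0.0992, 0.0763 and 0.226, and pairs with different numbers −0.153 to 0.0805. If arrays pool embryos, p-values measure the spread between pools. Single values were tested by exact permutation (scipy 1.17.1).

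The 10 members and the 12 other gene lists were chosen with earlier results of these data known. Genes named are all members and, of the pathway, endothelial, lymphatic and mural lists, those called and the 3 highest and 3 lowest; genes the text adds to these (among them Cdh5, Pecam1, Myh11, Tagln, Nrp2, Ptprb, Pgf and 3 tip cell genes) were chosen after their values were seen, and the other marker lists are given as counts. Alternatives varied the block, filter, variance prior, normalization and arrays.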

Additional observations from a re-analysis of the deposited data

How the results depend on the processing

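No member passed an adjusted p of 0.05 in limma in any alternative in which it was fitted, and Kdr, Flt1, Flt4, Angpt2 and Tek kept a positive log2 fold change in all of them. The count of genes past the threshold was 62; with no replicate block it was 59, of which 45 were shared, and dropping the pairing changed no call of a member. It was 10 with no brightness filter, where more genes were tested, and 94 with an intensity trend in the variance prior. The count of pathway genes past it was 2, against 0 with no filter and 4 with the trend. In fits chosen after seeing the data, which dropped single arrays and the block and left 2 arrays in a tissue, the genes past it numbered 12 without dorsal 1 or ventral 2, 15 without ventral 3, 22 without dorsal 2, 39 without dorsal 3 and 107 without ventral 1, and 42 to 83 without whole replicates. Pathway genes past it ran from 1 to 3 without replicates and from 0 to 3 without arrays. Log2 fold changes without whole replicates ran from −0.23 to 0.10 for Vegfa, −0.053 to 0.18 for Vegfb, −0.71 to 0.89 for Vegfc, −0.40 to 0.77 for Angpt1 and −0.22 to 0.70 for Tie1. Single arrays turned Vegfa to 0.14 (without ventral 1), Vegfb to −0.020 (ventral 2), Vegfc to 0.60 (ventral 1) and 0.21 (dorsal 1), Angpt1 to −0.55 (ventral 3) and Tie1 to −0.24 (dorsal 1). Over both kinds of fit, 9 in all, Kdr ran from 0.73 to 1.17, Flt1 from 0.41 to 0.81, Angpt2 from 0.47 to 1.49 and Tek from 0.22 to 0.60. Flt4 reached the brightness level in only 4 of these fits, those without replicate 1 or a single dorsal array, and ran from 0.42 to 0.71. The arrays left out in those 4 were ones where Flt4 was low, so its range does not measure stability. Without replicates, Angpt2 minus Angpt1 ran from −0.25 to 1.35, Tek minus Tie1 from −0.10 to 0.52, Vegfc minus Vegfa from −0.63 to 0.79, and Tek and Tie1 against endothelial genes from −0.0044 to 0.26 and from −0.52 to 0.35. The cause of these changes was not tested, other than the number of genes or arrays that a setting changes. The exact permutation tests could not go below p = 0.1, or 0.25 with sign flips over pairs, so their p-values say nothing about stability.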
